A study of Mus musculus with 9 samples.

Results

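The formation of the follicular antrum requires fluid to enter the follicle, and the transcripts described here encode 7 membrane proteins that move chloride, bicarbonate and their partner cations across epithelial cells, and a scaffold that anchors such proteins. The group comprised 8 of the 52025 genes listed, chosen by gene name: *Slc12a2*, *Slc12a4*, *Slc12a7*, *Slc4a2*, *Slc4a4*, *Slc4a7*, *Cftr* and *Slc9a3r1*. Each name matched a single row of the tables. The samples were ovaries of juvenile mice of the Kunming strain on postnatal day (PD) 14, 15 and 16, with 3 libraries for each day and 9 in all, and the days were compared to follow the initial formation of the antrum. The labels give no genotype or agent, and age is the only difference between the groups that they name. The 3 libraries of a day came from separate ovaries per the paper. In the labels, granulosa cells are named as the source and ovary as the tissue.

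Transcript levels were given as FPKM, that is fragments per kilobase of transcript scaled to the mapped fragments of the library. Levels can thus be compared between days, and between genes only as far as the exon lengths used are right. The libraries held 20.4 to 28.7 M mapped fragments. The 8 granulosa cell markers summed to 2509 to 3350 FPKM, and *Inha*, which encodes the inhibin alpha subunit, was the most abundant of them. However, the libraries were not of granulosa cells alone. All 10 oocyte markers passed the expression filter, with a summed level of 1094 to 1608 FPKM. The 6 theca and interstitial markers, mostly *Hsd3b1*, summed to 1134 to 2191 FPKM. Stromal markers summed to 464 to 630.0 FPKM, muscle markers to 266 to 405, red cell markers to 46.4 to 147, immune cell markers to 14.6 to 18.7 and fat cell markers to 4.14 to 7.94 FPKM. The fat cell sum came nearly all from *Plin1*. In such mixed tissue, fewer cells of a type and less RNA per cell cannot be told apart.

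Salt movement sets the osmotic gradient that water follows across an epithelium. In the SLC12 family, NKCC1 (*Slc12a2*) brings sodium, potassium and chloride into the cell, whereas the potassium-chloride cotransporters KCC1 (*Slc12a4*) and KCC4 (*Slc12a7*) let potassium and chloride out. In the SLC4 family, AE2 (*Slc4a2*) exchanges chloride for bicarbonate, and NBCe1 (*Slc4a4*) and NBCn1 (*Slc4a7*) carry sodium together with bicarbonate. CFTR is an anion channel of the apical membrane, and NHERF1 (*Slc9a3r1*) is a PDZ scaffold that links CFTR and the sodium-proton exchanger NHE3 to ezrin.

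*Slc12a7* was the only member called between days. Its transcript fell from PD14 to PD16 in limma's test, whereas none of the other 6 members tested was called in any comparison. The levels of the group spanned a wide range. *Slc12a7* was the most abundant member at 17.8 ± 2.67 FPKM (SD, n = 9 libraries), followed by *Slc4a2* at 14.8 ± 0.936, *Slc12a4* at 13.3 ± 1.05, *Slc12a2* at 11.3 ± 1.03, *Slc4a7* at 10.8 ± 0.738 and *Slc9a3r1* at 8.34 ± 0.920 FPKM. *Slc4a4* was far lower at 1.25 ± 0.179 FPKM and *Cftr* lowest at 0.679 ± 0.115 FPKM. In all 9 libraries each member lay above the next in this order, except that *Slc12a2* exceeded *Slc4a7* in only 6 of 9 libraries, and these neighbours did not differ beyond their spread. The ranges over all libraries overlapped between all neighbours from *Slc12a7* to *Slc9a3r1*, but *Slc4a4* and *Cftr* stood clear of the members above them. This order rests on the exon lengths behind the deposited FPKM. For *Slc12a7*, *Slc12a2* and *Slc4a7* the smallest length that gave whole fragments was 5131, 6520 and 7389 bases. GENCODE M21 gives these genes 12669, 10920 and 15205 exonic bases, and with a longer length their FPKM would be lower.

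**Figure D1:**
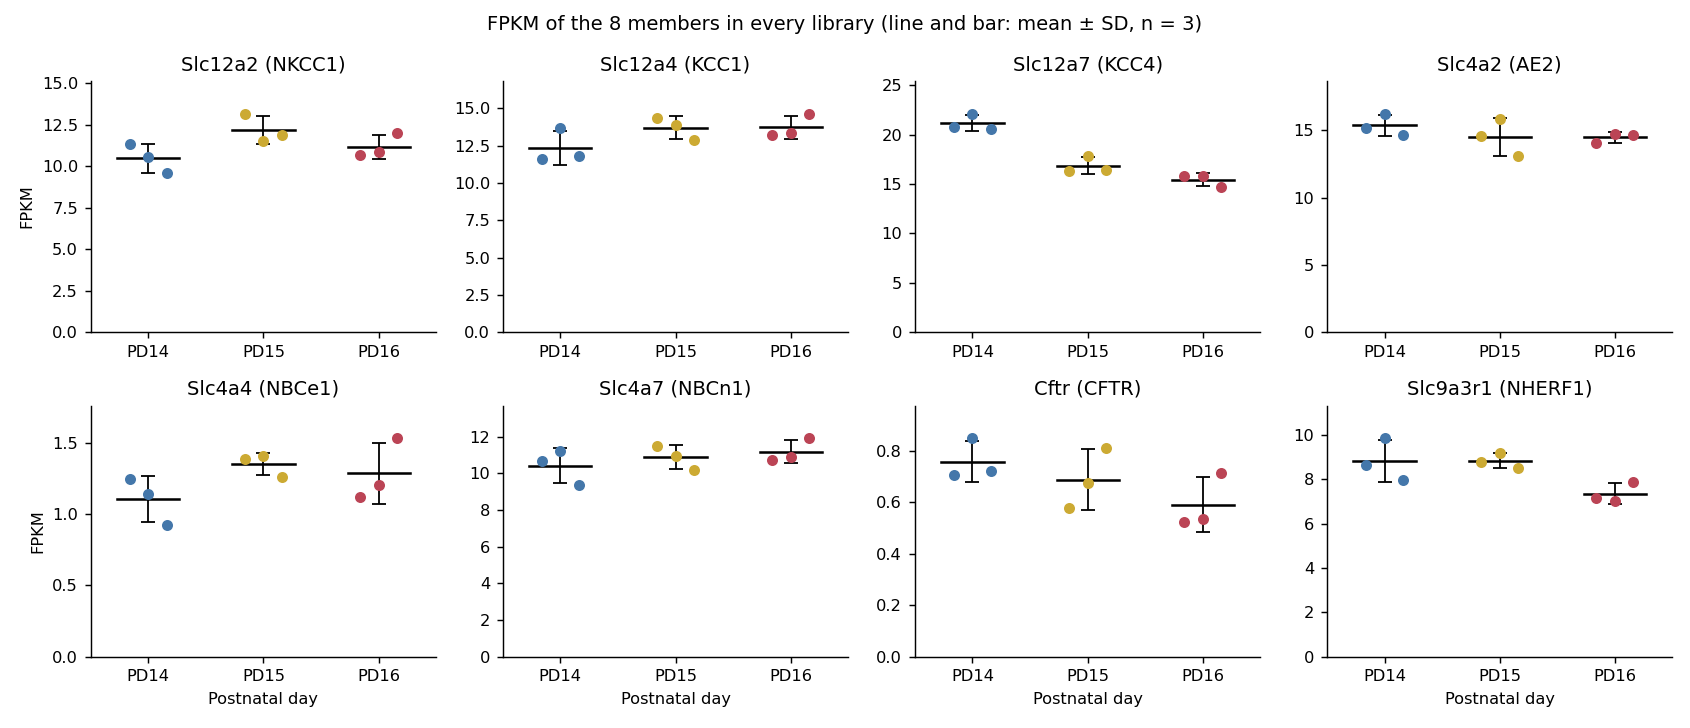
FPKM of the 8 members (vertical axes, each from 0) on PD14, PD15 and PD16, where points are libraries in the order of their replicate number, lines are means and bars are SD (n = 3). The *Slc12a7* points lie between 20.6 and 22.1 FPKM on PD14 and between 14.7 and 15.8 on PD16, while most other members overlap between the days.

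For each comparison, differences were tested over the 15495 genes whose mean FPKM exceeded 1 on at least 1 day, and a gene was called at a Benjamini-Hochberg adjusted p under 0.05. Of the 8 members, 7 passed this filter and *Cftr* did not. In PD16 against PD14, 1 of 7 members was called, and it fell, beside 4.25% of all genes tested. In PD15 against PD14, 0 of 7 members were called by limma, beside 0.678% of all genes. In PD16 against PD15, again 0 of 7 were called, beside 0.729%. An unadjusted p under 0.05 was found in limma for 2 members in PD15 against PD14 (*Slc12a2* and *Slc12a7*), 2 in PD16 against PD14 (*Slc12a7* and *Slc9a3r1*) and 1 in PD16 against PD15 (*Slc9a3r1*), beside 14.7%, 22.8% and 14.1% of all genes tested. The test for any difference among the 3 days called 1 of 7, again *Slc12a7*, beside 3.03% of all genes. The libraries of the days compared did not overlap for 3 of the 7 members in PD15 against PD14, for 2 in PD16 against PD14 and for 2 in PD16 against PD15. Over all genes tested, this was so for 20.6%, 28.5% and 19.6% in the same order. The median log2 change of the 7 members was 0.06, 0.09 and -0.04, beside 0.01 for all genes tested in each of the 3 comparisons. The comparisons share libraries and are not independent of each other.

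**Figure D2:**
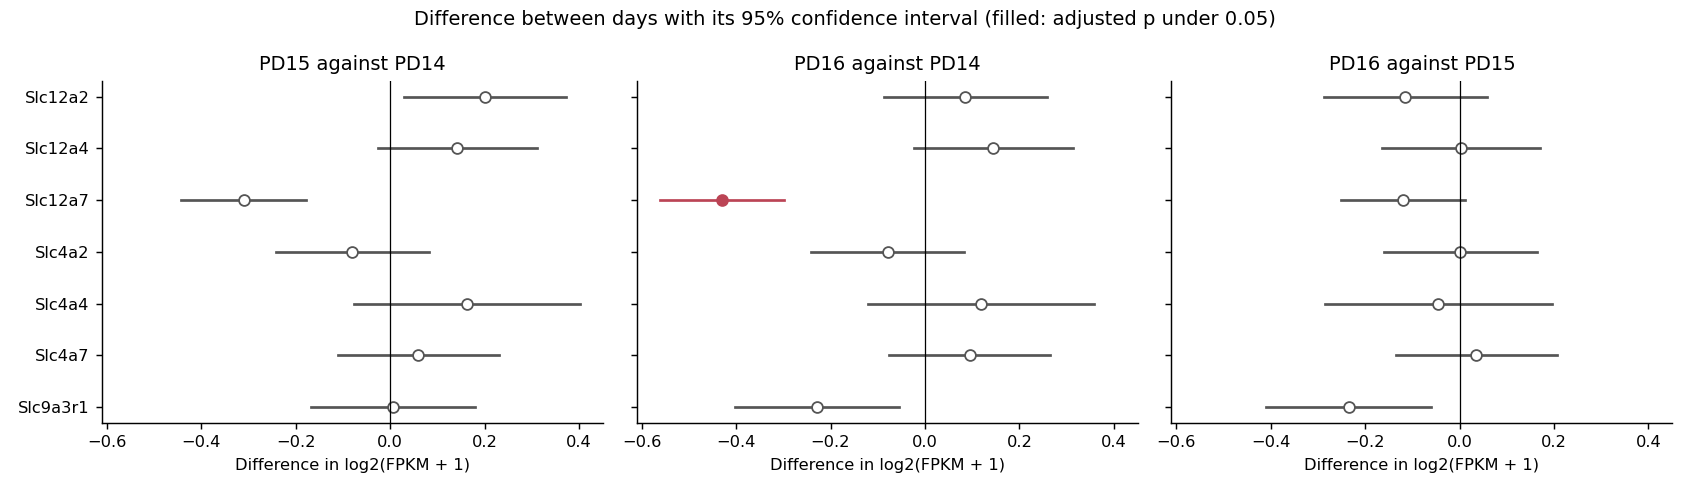
Difference in log2(FPKM + 1) between days (horizontal axis) for the 7 members tested, as points with their 95% confidence intervals from limma. The filled point is *Slc12a7* in PD16 against PD14 at -0.43, the only difference with an adjusted p under 0.05.

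The cotransporters that export chloride were considered first. *Slc12a7* (ENSMUSG00000017756, GRCm38, chr13:73733094-73816754, plus strand) encodes KCC4. It measured 20.7, 22.1 and 20.6 FPKM in the PD14 libraries, 16.3, 17.9 and 16.4 in the PD15 libraries, and 15.8, 15.8 and 14.7 in the PD16 libraries. Every PD15 library was below every PD14 library, and every PD16 library was below every PD15 library. Between PD14 and PD16 the mean fell from 21.2 ± 0.832 to 15.4 ± 0.667 FPKM (SD, n = 3 each), a change of -27.0%. On the log2(FPKM + 1) scale the change was -0.43 with an SE of 0.06 and a 95% confidence interval of -0.56 to -0.30 (adjusted p = 0.0106, limma). The difference between PD14 and PD15 was -0.31, with an SE of 0.06 and an adjusted p of 0.0552 in limma, so it missed the threshold. From PD15 to PD16 it was -0.12, with an adjusted p of 0.397 in limma. The test of any difference among the days gave an adjusted p of 0.0188 in limma. Without PD14 replicate 3 this value was 0.0583 and the call was lost, whereas PD16 against PD14 was called without each of the 9 libraries in turn, with an adjusted p of 0.0161 to 0.0408. These levels rested on 1843 to 2741 fragments per library, for which counting alone gives a coefficient of variation of 2.01% to 2.30% per day, and the observed values were 3.93% to 5.16%.

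Several marker lists also differed between the days, though not all in the order seen for *Slc12a7*. The 11 markers of surface and oviduct epithelium, of which 7 were tested, summed to 64.2 to 70.2 FPKM on PD14, 56.0 to 62.7 on PD15 and 47.8 to 52.9 on PD16. From PD14 to PD16, 6 of the 7 had a negative log2 change, and the keratins *Krt8*, *Krt18* and *Krt19* were called as lower in limma. However, *Upk3b*, at a mean of 10.2 FPKM, changed by 0.05 and *Lrrn4* by -0.09, and neither was called. The oviduct markers of this list stayed below 1 FPKM and were not tested. The means on PD14, PD15 and PD16 were 0.405, 0.204 and 0.197 FPKM for *Foxj1*, which marks ciliated cells. For *Ovgp1*, which marks secretory cells, they were 0.513, 0.389 and 0.348 FPKM. The 5 endothelial markers summed to 61.7 to 66.0 FPKM on PD14, 57.5 to 59.6 on PD15 and 54.8 to 57.6 on PD16, and *Tie1* was called as lower on PD16 than on PD14. The single fat cell marker tested, *Plin1*, was called as lower on both later days, and the fat cell markers summed to 6.75 to 7.94 FPKM on PD14, 4.29 to 4.61 on PD15 and 4.14 to 5.82 on PD16. These sums were nearly all *Plin1*, which averaged 6.97 FPKM on PD14. The other 4 fat cell markers did not exceed a mean of 1 FPKM. Red cell markers summed to 105 to 147 FPKM on PD14, 46.4 to 63.2 on PD15 and 60.8 to 116 on PD16, and *Hba-a1* was called as lower on PD15 than on PD14. The theca and interstitial markers, of which none was called, summed to 1559 to 2191, 1134 to 1716 and 1166 to 1581 FPKM. These sums were mostly *Hsd3b1*, with means of 1785, 1291 and 1273 FPKM. From PD14 to PD16, 4 of these 6 markers had a negative log2 change, while *Cyp17a1* (0.29) and *Star* (0.38) had a positive one. Of the granulosa cell markers, *Cyp19a1* was called as lower and *Amh* as higher on PD16 than on PD14, and their sums overlapped between the days. The 6 stromal markers, of which none was called, summed to 538 to 630.0 FPKM on PD14, 464 to 535 on PD15 and 536 to 562 on PD16. The part of these cells in the *Slc12a7* values was not tested. The 2 genes whose log2(FPKM + 1) followed *Slc12a7* most closely over the 9 libraries were *Sparc*, which encodes a matrix glycoprotein, with a Pearson r of 0.98, and *Tmcc1*, a transmembrane protein of the endoplasmic reticulum, with 0.97. As the 9 libraries share the 3 days, these correlations are descriptions only.

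*Slc12a4* (ENSMUSG00000017765, chr8:105943590-105966097, minus strand) encodes KCC1, a widely expressed relative of KCC4 that takes part in cell volume control. Its levels were 11.6, 13.7 and 11.8 FPKM on PD14, 14.4, 13.9 and 12.9 on PD15, and 13.2, 13.4 and 14.6 on PD16. The days overlapped in every comparison, and PD14 replicate 2 lay among the later libraries. The means were 12.4 ± 1.14, 13.7 ± 0.783 and 13.7 ± 0.777 FPKM. The difference of PD16 from PD14 was 0.14 (95% confidence interval -0.02 to 0.31, adjusted p = 0.282, limma), and that of PD15 from PD14 was 0.14 (-0.03 to 0.31, adjusted p = 0.415, limma). Between PD15 and PD16 it was 0.00 (-0.17 to 0.17, adjusted p = 0.992, limma). The interval of PD16 against PD14 leaves room for a rise, but not for a fall of the size measured for *Slc12a7*. An exon of *Slc12a4* overlaps 361 bases of the antisense gene *Gm16156*, whose mean was 0.152 FPKM.

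The balance between both cotransporters therefore shifted within libraries. The FPKM of *Slc12a7* was 1.62 to 1.79 times that of *Slc12a4* in the PD14 libraries, 1.14 to 1.29 times in the PD15 libraries and 1.00 to 1.20 times in the PD16 libraries. The FPKM of both genes summed to 33.5 ± 1.96 on PD14, 30.6 ± 1.26 on PD15 and 29.2 ± 0.121 on PD16. *Slc12a7* made up 63.2% ± 1.22 of this sum on PD14, 55.2% ± 1.73 on PD15 and 52.9% ± 2.48 on PD16 (SD, n = 3 each). All 3 PD14 libraries lay above all 6 later ones, whereas the PD15 and PD16 libraries overlapped. As the ratios were built after the fall of *Slc12a7* was known, they are given without a test. Their level depends on the exon lengths behind the FPKM of both genes.

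**Figure D3:**
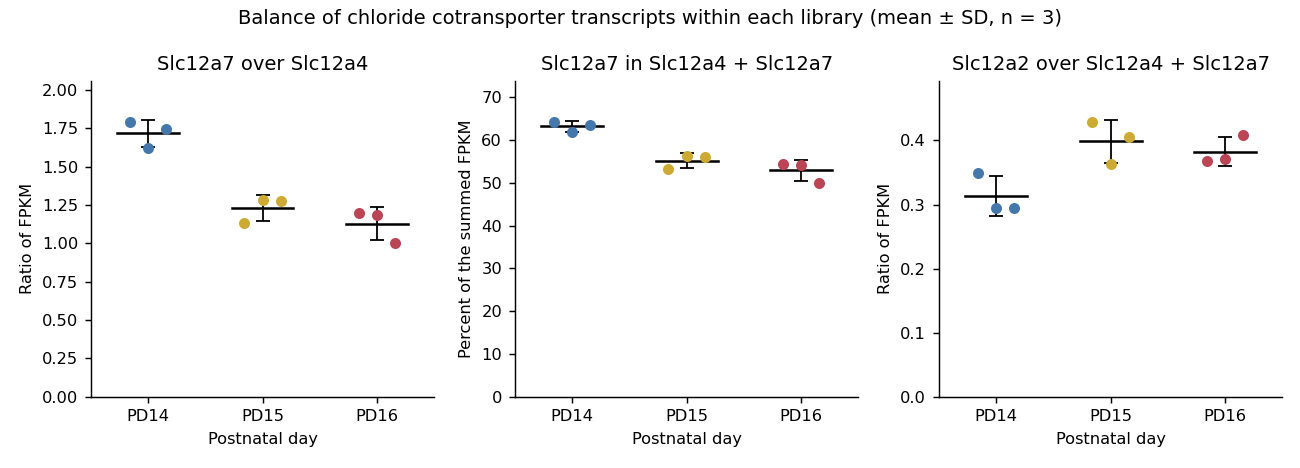
Ratio of *Slc12a7* to *Slc12a4* FPKM, share of *Slc12a7* in the summed FPKM of *Slc12a4* and *Slc12a7* in percent, and ratio of *Slc12a2* to that sum (vertical axes) by day, where points are libraries and lines and bars are mean ± SD (n = 3). The share of *Slc12a7* is highest in the 3 PD14 libraries, at 61.8% to 64.2%.

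The sequences before the starts of both KCC genes are shown because 1 of the pair fell and the other was not called. They are the 250 bases upstream of the RefSeq start, 5′ to 3′ on the strand of the gene (GRCm38.p6), chr13:73763410-73763659 on the plus strand for *Slc12a7* and chr8:105966116-105966365 on the minus strand for *Slc12a4*. Capitals mark matches to the GC box, GGGCGG on either strand.
Slc12a7: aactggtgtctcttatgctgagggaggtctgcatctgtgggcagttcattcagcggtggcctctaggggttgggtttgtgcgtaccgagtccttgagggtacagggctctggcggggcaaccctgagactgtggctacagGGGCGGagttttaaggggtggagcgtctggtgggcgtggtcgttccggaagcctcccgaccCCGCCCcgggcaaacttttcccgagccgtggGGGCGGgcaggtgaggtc
Slc12a4: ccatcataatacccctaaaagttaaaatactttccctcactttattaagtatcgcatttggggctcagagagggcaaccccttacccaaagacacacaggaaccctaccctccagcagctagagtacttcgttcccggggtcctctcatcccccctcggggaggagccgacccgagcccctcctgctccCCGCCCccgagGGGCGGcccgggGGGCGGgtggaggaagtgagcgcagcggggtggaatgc
Each window holds 3 GC boxes. At least 1 GC box is found in 32.7% of the 32851 promoter windows of the same length. Neither window holds the other letters searched on both strands. These were the E-box CACGTG (found in 6.02% of windows), the CCAAT box (33.8%) and the NR5A half-site AAGGTCA (4.08%). The forkhead core GTAAACA (3.17%) and TGACGTC, a part of the cyclic AMP response element (2.78%), were also among them. The GC content was 63.6% for *Slc12a7* and 60.8% for *Slc12a4*, beside a median of 52.4% over all windows. The RefSeq start of *Slc12a7* lies inside the GENCODE gene, which begins further upstream, and RefSeq lists 2 starts for this gene, of which the first is shown. For *Slc12a2* no promoter is shown.

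*Slc12a2* (ENSMUSG00000024597, chr18:57878678-57946821, plus strand) encodes NKCC1, the cotransporter that loads secretory cells with chloride. It measured 11.3, 10.5 and 9.57 FPKM on PD14, 13.2, 11.5 and 11.9 on PD15, and 10.7, 10.8 and 12.0 on PD16. Every PD15 library was above every PD14 library, whereas the PD16 libraries overlapped with both. The means were 10.5 ± 0.872, 12.2 ± 0.864 and 11.2 ± 0.713 FPKM. The difference of PD15 from PD14 was 0.20 with an SE of 0.08 (95% confidence interval 0.03 to 0.37). It did not pass the threshold over all genes (adjusted p = 0.267, limma). PD16 differed from PD14 by 0.09 (adjusted p = 0.541, limma) and from PD15 by -0.11 (adjusted p = 0.552, limma). The summed oocyte markers were likewise highest on PD15, at 1489 to 1608 FPKM, beside 1140 to 1416 on PD14 and 1094 to 1171 on PD16, and 1 of the 10 was called as higher on PD15 than on PD14. Their part in the *Slc12a2* values was not tested. The gene closest to *Slc12a2* over the 9 libraries was *Nr6a1*, the germ cell nuclear factor (r = 0.98). Relative to the summed FPKM of *Slc12a4* and *Slc12a7*, *Slc12a2* stood at 0.313 ± 0.0317 on PD14, 0.399 ± 0.0334 on PD15 and 0.383 ± 0.0229 on PD16, and the PD14 libraries lay below all PD15 and all PD16 libraries.

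None of the bicarbonate transporters was called between days in limma. *Slc4a2* (ENSMUSG00000028962, chr5:24423837-24440950, plus strand) encodes AE2, the anion exchanger of the group. Its levels were 15.2, 16.2 and 14.6 FPKM on PD14, 14.6, 15.8 and 13.1 on PD15, and 14.0, 14.7 and 14.6 on PD16. All days overlapped. PD15 differed from PD14 by -0.08 (95% confidence interval -0.24 to 0.08, adjusted p = 0.647, limma), PD16 from PD14 by -0.08 (-0.24 to 0.08, adjusted p = 0.551) and PD16 from PD15 by 0.00 (-0.16 to 0.16, adjusted p = 0.997). *Slc4a2* shares 1141 exonic bases with *Fastk* on the opposite strand, which measured 17.3 FPKM on average. As no source used here says that strand was kept in counting, fragments from the shared bases, out of the 8322 exonic bases of *Slc4a2*, cannot be assigned to either gene. The closest genes to *Slc4a2* were *Nid2*, a basement membrane protein (r = 0.95), and *Asic1*, an acid-sensing channel (r = 0.95).

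*Slc4a7* (ENSMUSG00000021733, chr14:14702279-14799940, plus strand) encodes NBCn1, an electroneutral cotransporter that loads cells with bicarbonate. It measured 10.7, 11.2 and 9.37 FPKM on PD14, 11.5, 11.0 and 10.2 on PD15, and 10.7, 10.9 and 11.9 on PD16. The days overlapped in all comparisons. The differences were 0.06 for PD15 against PD14, 0.09 for PD16 against PD14 (95% confidence interval -0.08 to 0.27) and 0.04 for PD16 against PD15, with adjusted p of 0.763, 0.492 and 0.894 in limma. *Furin*, a proprotein convertase (r = 0.98), and *Ep400*, a chromatin remodeller (r = 0.98), followed it most closely.

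*Slc4a4* (ENSMUSG00000060961, chr5:88886818-89239653, plus strand) encodes NBCe1, an electrogenic cotransporter of sodium and bicarbonate. It stood close to the expression filter, at 1.25, 1.14 and 0.926 FPKM on PD14, 1.39, 1.41 and 1.26 on PD15, and 1.12, 1.21 and 1.53 on PD16. All PD15 libraries lay above all PD14 libraries, by a narrow margin, and the PD16 libraries overlapped with both. The means were 1.10 ± 0.163, 1.35 ± 0.0787 and 1.29 ± 0.216 FPKM. The difference of PD15 from PD14 was 0.16 (95% confidence interval -0.08 to 0.40, adjusted p = 0.516, limma). Those of PD16 were 0.12 from PD14 (adjusted p = 0.545, limma) and -0.04 from PD15 (adjusted p = 0.904, limma). At this level the added constant of 1 understates a change, and the ratio of mean FPKM was 1.22 for PD15 over PD14. The libraries held 204 to 421 fragments of *Slc4a4*, and its coefficient of variation within days was 5.82% to 16.8%, beside 5.14% to 6.10% from counting alone. *Gm43980* (r = 0.96) and *Wwc2*, a regulator of Hippo signaling (r = 0.95), followed it most closely.

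*Cftr* (ENSMUSG00000041301, chr6:18170687-18322768, plus strand) was detected in every library but did not reach a mean of 1 FPKM on any day. Its levels were 0.704, 0.848 and 0.721 FPKM on PD14, 0.577, 0.676 and 0.811 on PD15, and 0.524, 0.533 and 0.714 on PD16. The days overlapped, since PD16 replicate 3 lay above the lowest PD14 library. The means were 0.758 ± 0.0785, 0.688 ± 0.118 and 0.590 ± 0.107 FPKM, and the PD16 mean was 0.780 times the PD14 mean. In an exact permutation test over the 280 groupings of the 9 libraries into 3 days, the differences among the days gave p = 0.196, where the smallest p possible was 0.00357. Between 94 and 181 fragments of *Cftr* were found per library, which gives a counting coefficient of variation of 8.58% to 9.63% against an observed 10.4% to 18.1%. It overlaps 129 exonic bases of the antisense gene *Gm15592*, which measured 0.0703 FPKM on average.

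*Slc9a3r1* (ENSMUSG00000020733, chr11:115163341-115181181, plus strand) encodes the scaffold NHERF1. It measured 8.65, 9.85 and 7.96 FPKM on PD14, 8.79, 9.19 and 8.52 on PD15, and 7.17, 7.03 and 7.88 on PD16. Every PD16 library was below every library of both earlier days, although the gap to PD14 replicate 3 was small. The mean was 8.82 ± 0.957 on PD14, 8.83 ± 0.338 on PD15 and 7.36 ± 0.458 FPKM on PD16. PD16 differed from PD14 by -0.23 with an SE of 0.08 (95% confidence interval -0.40 to -0.05, adjusted p = 0.121, limma) and from PD15 by -0.23 (-0.41 to -0.06, adjusted p = 0.204, limma). Neither passed the threshold over all genes tested. PD15 and PD14 differed by 0.01 (adjusted p = 0.979, limma). The summed epithelial markers given with *Slc12a7* were lowest on PD16 here too, though *Upk3b* was not, and their part was not tested. *Pcdhb9*, a protocadherin (r = 0.97), and *Col16a1*, a collagen (r = 0.94), followed *Slc9a3r1* most closely. Its relative *Slc9a3r2*, which encodes NHERF2, was more abundant, and *Slc9a3r1* stood at 0.216 to 0.292 times its FPKM over all libraries.

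Among the members themselves, 19 of the 28 pairs had a positive Pearson r of log2(FPKM + 1) over the 9 libraries, with a median of 0.18. The closest pairs were *Slc12a2* with *Slc4a4* (r = 0.86), *Slc12a4* with *Slc4a7* (r = 0.81) and *Slc4a4* with *Slc4a7* (r = 0.81). *Slc12a7* ran against several of these, most with *Slc12a4* (r = -0.59) and *Slc4a4* (r = -0.56), and went with *Slc9a3r1* (r = 0.60). *Slc9a3r1* and *Cftr* had an r of 0.69. These values describe 9 libraries that share 3 days and differ in depth.

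The other genes of ion and bicarbonate transport were examined in 9 lists of 92 genes, of which 52 were tested. From PD14 to PD16, 2 of 52 rose and 0 fell in limma, namely *Sgk1* and *Car14*, a share of 3.85% beside 4.25% of all genes tested. In PD15 against PD14, 0 of 52 were called in limma, beside 0.678% of all genes tested. In PD16 against PD15 1 rose, again *Sgk1*, a share of 1.92% beside 0.729%. *Sgk1* encodes a kinase that acts on several ion transporters. It measured 5.24, 5.12 and 4.48 FPKM on PD14, 6.56, 5.75 and 6.54 on PD15, and 9.48, 12.6 and 11.3 on PD16. No library of a later day reached down to an earlier day. The PD16 mean was 2.25 times the PD14 mean, with a log2 change of 1.02 and an SE of 0.10 (adjusted p = 0.00419, limma), and the log2 change from PD15 was 0.73 (adjusted p = 0.0223, limma). The call against PD15 was lost without PD15 replicate 1, without PD15 replicate 2 or without PD16 replicate 3, with an adjusted p of up to 0.0817. *Car14* encodes the membrane carbonic anhydrase XIV, which interconverts carbon dioxide and bicarbonate outside the cell. Its levels were 12.8, 17.8 and 17.0 FPKM on PD14, 18.2, 18.3 and 23.0 on PD15, and 38.0, 28.4 and 23.9 on PD16. The PD16 libraries were all above the earlier ones but spread widely. Its log2 change from PD14 to PD16 was 0.87 with an SE of 0.17 (adjusted p = 0.0294, limma), and the call was lost without PD14 replicate 1, PD14 replicate 3, PD16 replicate 1 or PD16 replicate 2, with an adjusted p of up to 0.0872. Among the cell type markers, the muscle gene *Cnn1* (log2 change 0.61, adjusted p = 0.0348, limma), the granulosa cell gene *Amh* (0.47, adjusted p = 0.0223, limma) and the oocyte gene *Bmp15* (0.39, adjusted p = 0.0331, limma) were also called as higher on PD16 than on PD14. Of the 8 granulosa cell markers, however, 5 had a negative log2 change in this comparison, with a median of -0.06 over the list. *Cyp19a1* was among them and was called as lower. Of the 10 oocyte markers, 7 had a negative log2 change, with a median of -0.22, and their sums are given with *Slc12a2*. Muscle markers summed to 278 to 316 FPKM on PD14, 266 to 347 on PD15 and 304 to 405 on PD16. The part of these cells in the *Sgk1* and *Car14* values was not tested.

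**Figure D4:**
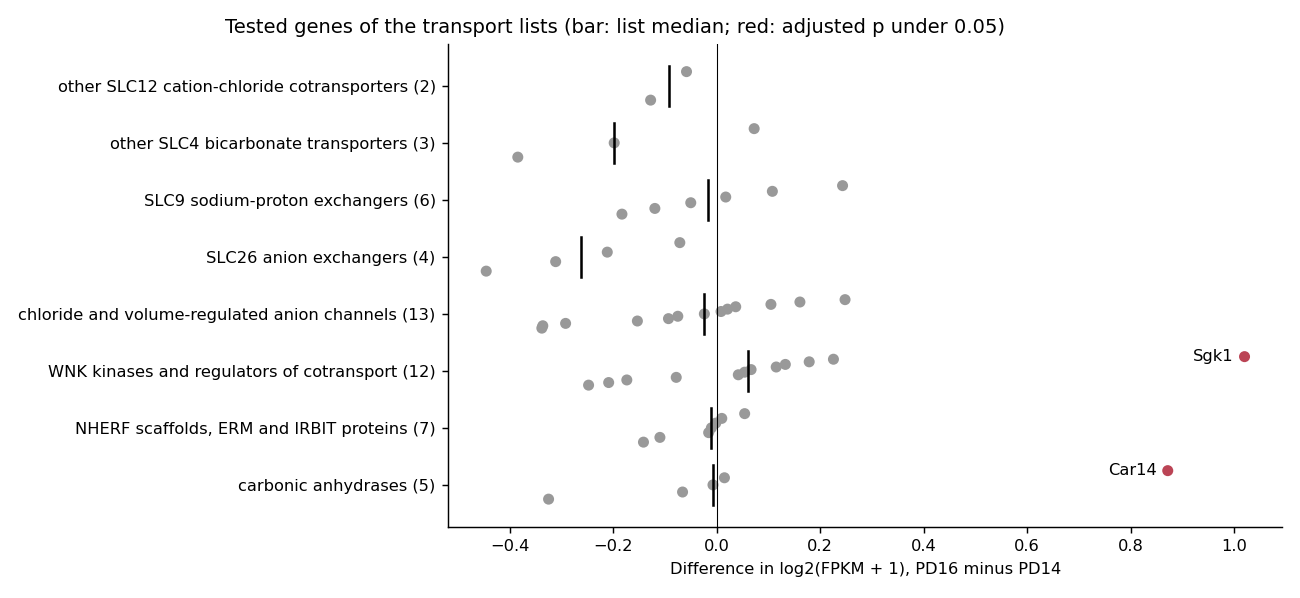
Difference in log2(FPKM + 1) of PD16 from PD14 (horizontal axis) for the 52 genes tested, by list with the number tested in brackets, where points are genes and bars are list medians. The bar of the SLC26 list includes *Slc26a8*, which passed the filter through PD14 alone, and is not read as a fall. *Sgk1* at 1.02 and *Car14* at 0.87 are the only points with an adjusted p under 0.05.

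In the remaining lists no gene was called in limma, and the most abundant tested gene is given for most of them. Of the other SLC12 genes 2 of 6 were tested. Of the other SLC4 genes 3 of 7 were tested, led by the anion exchanger AE3 gene *Slc4a3* at 5.70 FPKM, with a median log2 change from PD14 to PD16 of -0.20. Of the sodium-proton exchangers 6 of 11 were tested, with a median of -0.02. Of the SLC26 anion exchangers 4 of 11 were tested. *Slc26a8* passed the filter through PD14 alone, at a mean of 1.35 FPKM beside 0.653 on PD15 and 0.724 on PD16, so the median drawn for this list is not given here. Their leading gene *Slc26a7* averaged 68.8 FPKM, above every member on the same per-length scale, and measured 63.2 to 91.0 FPKM on PD14, 53.6 to 76.0 on PD15 and 60.4 to 63.0 on PD16 (PD16 against PD14, log2 change -0.31, adjusted p = 0.246, limma). Of the chloride and volume-regulated anion channels 13 of 18 were tested, led by *Ano6* at 23.7 FPKM, with a median of -0.02. The scaffold list, with 7 of 8 tested and a median of -0.01, was led by *Rdx*, which encodes radixin, at 98.7 FPKM. The WNK list with *Sgk1*, all 12 of which were tested, had a median of 0.06, and the 5 of 16 carbonic anhydrases tested had a median of -0.01. None of the 3 subunits of the epithelial sodium channel passed the filter. The highest of them, *Scnn1a*, averaged 0.519 FPKM.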

How the data were processed

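Total RNA was sequenced from 9 libraries, 3 per day, prepared with the NEBNext Ultra kit. The authors deposited FPKM, 1 table per library, normalised for transcript length and depth. The submitters' processing notes name HISAT2 2.0.5 and mm10, the UCSC name of GRCm38. Coordinates and overlaps came from GENCODE M21 (GRCm38), and promoters from RefSeq (GRCm38.p6), which matched 7 of 8 members. FPKM were taken as deposited and tested as log2(FPKM + 1), a scale that understates changes of low genes, with limma 3.58.1 in R 4.3.3 (intensity trend, all libraries in 1 fit, two-sided). Depth was derived from the FPKM step of a single fragment, and fragment numbers followed from it. Between 90.2% and 90.8% of values below 1000 fragments were whole (tolerance 0.02). For *Slc12a2*, *Slc12a7* and *Slc4a7* the exon length was not that of GENCODE M21, so the smallest length that gave whole fragments was used. Python 3.11.15, NumPy 2.4.6, pandas 2.3.3 and Matplotlib 3.10.9 were also used. The method was tested on simulated data. Intervals from fragments cover counting error only.

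Members and lists were chosen with earlier results of these data known. Genes named were all members, called genes of the transport lists or else the most abundant tested gene of a list, and the 2 genes with the highest Pearson r to each member. Single marker genes, *Slc9a3r2*, *Slc26a8* and *Scnn1a* were named after their values were seen. Results of some genes that this rule names are not reported here. The lists held markers of granulosa, theca, oocyte, stromal, epithelial, red, endothelial, immune, muscle and fat cells. Alternatives were pseudocounts, filters, scalings, trend, weights and robust fits in limma, a replicate block, only the days compared, and each library left out. limma's voom on recovered fragments was added after seeing the data.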

Additional observations from a re-analysis of the deposited data

How the results depend on the processing

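The fall of *Slc12a7* from PD14 to PD16 was called in all 21 alternatives, with a log2 change of -0.47 to -0.40 and an adjusted p of 0.00385 to 0.0408 (limma), and 1 member was called in each of them. In PD15 against PD14, 1 member in place of 0 was called with array weights, and 1 with voom on the recovered fragments of 12245 genes, which was added after seeing the data. This was *Slc12a7*, with a log2 change of -0.29 and -0.33 and an adjusted p of 0.0485 and 0.0353 (limma). Its adjusted p in the 21 alternatives ran up to 0.19. The count of members called by the test of any difference was 0 to 1 when a library was left out. The direction of near-zero differences turned. *Slc9a3r1* in PD15 against PD14 was at -0.0087 with TPM and at -0.000939 with voom, and *Slc12a4* and *Slc4a2* in PD16 against PD15 were at -0.0058 and -0.0076 with TPM and at -0.032 and -0.034 with array weights. With a library left out, the log2 change in PD15 against PD14 ran from -0.058 to 0.080 for *Slc9a3r1* and from -0.0085 to 0.110 for *Slc4a7*. In PD16 against PD15 it ran from -0.040 to 0.036 for *Slc12a4*, -0.067 to 0.063 for *Slc4a2*, -0.120 to 0.0070 for *Slc4a4* and -0.0073 to 0.072 for *Slc4a7*. Other differences kept their sign with a library left out. The log2 change in PD15 against PD14 then ran from -0.14 to -0.01 for *Slc4a2* and from 0.10 to 0.21 for *Slc4a4*. In PD16 against PD14 it ran from 0.03 to 0.14 for *Slc12a2*, -0.11 to -0.04 for *Slc4a2*, 0.04 to 0.17 for *Slc4a4* and 0.03 to 0.14 for *Slc4a7*, and in PD16 against PD15 from -0.16 to -0.06 for *Slc12a2* and -0.14 to -0.08 for *Slc12a7*. For *Slc4a4*, a pseudocount of 0.1 gave 0.28 in PD15 against PD14 and 0.20 in PD16 against PD14. Values with voom were 0.29 and 0.21 in the same order. None of these was called. The causes of these moves were not tested.

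Genes called over all genes tested ran from 3 to 184 in PD15 against PD14, from 92 to 944 in PD16 against PD14 and from 14 to 237 in PD16 against PD15. The lowest in PD16 against PD14 was without PD16 replicate 1, and that in PD15 against PD14 without PD15 replicate 1. With the replicate number as a block, *Slc12a7* was called in PD16 against PD14 with a log2 change of -0.43 and an adjusted p of 0.0289 (limma), 1 member was called there and 0 in the other comparisons between days, and over all genes 24, 227 and 56 were called. Libraries of the same number on different days correlated at -0.21 to 0.16 in their deviations, and 2 of 9 were closest to their own number, so the number does not pair them. *Car14* lost its call with the block, with no filter and with only the 2 days compared, and *Sgk1* in PD16 against PD15 with the block and with no filter. *Slc4a4* could not be fitted with FPKM above 1 in every library. At the depth of these libraries, counting alone gave a coefficient of variation of 8.58% to 9.63% for *Cftr* and 5.14% to 6.10% for *Slc4a4*.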
